A study of Mus musculus with 3 samples.

Results

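At the very start of mouse chromosome 11, PARP-1 ChIP-seq counts in nucleus accumbens were among the highest of all listed sites, and the values after cocaine and saline differed by small amounts. The 24 sites described here are those of 1727 in the authors' table of differential sites whose gene name is Sfi1 (20 sites), Pisd-ps3 (2), Eif4enif1 (1) or Pisd-ps2 (1). The first 3 genes adjoin on chromosome 11, and Pisd-ps2 is a related pseudogene on chromosome 17. The genes were selected on values of this same table, namely their high normalized read counts and the run of sites at one locus, and the authors had listed every site for a difference between the groups. The contrast of cocaine with saline is therefore given as a description and supports nothing.

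C57BL/6 mice received intraperitoneal cocaine at 20 mg/kg, or saline, once daily for 7 days, and tissue was taken 30 minutes after the last injection. The labels name no genetic change in either group and give neither sex nor age. Each ChIP replicate pooled bilateral punches of the nucleus accumbens, a ventral part of the striatum, from 10 mice, so differences between single animals and cell types cannot be seen. The labels state 3 replicates per group, called biological in the protocol and sequencing replicates in the design. The table carries values of 2 cocaine and 3 saline replicates, numbered here by their order in it. The deposited sites cannot check the tissue against cell type markers, since they hold no measure of expression.

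PARP-1 is an abundant nuclear enzyme that binds DNA ends and nucleosomes and builds chains of ADP-ribose on itself and on neighbouring proteins. Sfi1 encodes a centrosomal protein whose long helix carries repeats that bind centrins. Eif4enif1 encodes 4E-T, a partner of the cap-binding factor eIF4E that shuttles it into the nucleus and represses translation in P-bodies. Pisd encodes phosphatidylserine decarboxylase, the mitochondrial enzyme that makes phosphatidylethanolamine, and Pisd-ps2 and Pisd-ps3 are transcribed pseudogenes derived from it. The sequenced part of each mouse chromosome begins just past a gap that stands for the centromere, and the chromosome 11 and 17 sites both lie close to that point.

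In the mm9 coordinates of the deposited table, the 23 chromosome 11 sites ran from chr11:3028501 to chr11:3100100, a span of 71.6 kb. They covered 41.7 kb (58.2%) of it, in pieces of 1.0 to 5.4 kb with gaps of 100 to 4800 bp. Pisd-ps3 (plus strand, 3024029 to 3031944) and Sfi1 (minus strand, 3031852 to 3093465) overlap by 93 bp at their ends. The first site named for Sfi1 (3031301 to 3034300) began inside Pisd-ps3, with 644 of its bases there, so its counts belong to both genes. Of the 20 Sfi1 sites, 19 were classed as gene body and 1 as promoter, 2.89 kb upstream of the start. The Eif4enif1 site (3098801 to 3100100, promoter class) lay in the 8.89 kb between the starts of the divergent genes Sfi1 and Eif4enif1. The Pisd-ps2 site (chromosome 17, 3081801 to 3083100, minus-strand gene at 3064317 to 3084182) had its centre 1.73 kb inside the gene from its start. The next of the 114 listed sites on chromosome 11 was 1645.9 kb away, at Nf2.

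The names of the pseudogenes depend on the assembly. All 4 transcript accessions in the deposited table matched the same symbols in RefSeq's gene table for GRCm38.p6. In that table, however, the neighbour of Sfi1 is Pisd-ps1, which has 0 sites here, and Pisd-ps3 has no placed chromosome, whereas mm9 puts Pisd-ps3 beside Sfi1. Gm33862, Gm11400, Fau-ps2 and Gm51877 lie within the Sfi1 span there. A count at one Pisd copy may include reads of another, and the part of this in the values below was not tested.

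Among the 4 genes, promoter sequence was found for Eif4enif1, which has 4 starts in the RefSeq promoter table (GRCm38.p6). The most upstream is shown because the listed site lies upstream of the gene. Which of the 4 starts is the one annotated in mm9 was not determined. It runs 5′ to 3′ on the plus strand of chr11:3202103-3202402, with CpG dinucleotides in capitals.
Eif4enif1 promoter: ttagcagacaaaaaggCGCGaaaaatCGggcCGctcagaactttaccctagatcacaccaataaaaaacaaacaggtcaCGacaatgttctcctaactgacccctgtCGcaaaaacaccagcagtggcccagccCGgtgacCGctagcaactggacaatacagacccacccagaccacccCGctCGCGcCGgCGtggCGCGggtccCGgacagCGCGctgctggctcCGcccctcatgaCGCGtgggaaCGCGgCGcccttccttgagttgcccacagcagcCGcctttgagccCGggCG
This window of 300 bases held 27 CpG dinucleotides, a number reached by 15.5% of the 32851 windows of that length in the table, whose median was 7. Its GC content was 61.3%, and the GC box GGGCGG was found 1 time on either strand, against at least 1 time in 35.7% of all windows. The other Eif4enif1 windows held 37, 46 and 42 CpG, and in mm9 the listed site ended 2255 bp upstream of the annotated start, so it did not reach a window of this kind.

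The Sfi1 sites together held 11050.7 and 11152.7 normalized reads in the cocaine replicates and 9746.1, 9645.4 and 9363.8 in the saline replicates. Both cocaine sums lay above all 3 saline sums, at 1.158 times the saline mean (11101.7 ± 72.1, SD, n = 2, against 9585.1 ± 198.2, SD, n = 3). The 2 Pisd-ps3 sites held 270.3 and 280.7 reads after cocaine and 218.8, 198.8 and 186.7 after saline. That was a ratio of 1.368, again without overlap. The Pisd-ps2 site on chromosome 17 held 255.48 and 282.94 reads against 200.7, 196.05 and 187.78, a ratio of 1.382. The 2 pseudogenes thus showed ratios close to each other on different chromosomes. In every replicate the Pisd-ps2 count was 0.917 to 1.008 times the Pisd-ps3 sum, on average 0.977 ± 0.044 times in the 2 cocaine replicates (SD) and 0.970 ± 0.046 times in the 3 saline replicates (SD). This sets 1 site of 1.3 kb against 2 sites of 1.0 kb each, so it depends on the listed lengths. Per kb the saline means were 149.9 at Pisd-ps2 and 100.8 and 100.6 at the Pisd-ps3 sites. The cocaine means were 207.1 at Pisd-ps2 and 135.6 and 139.8 at the Pisd-ps3 sites. The Eif4enif1 site held 343.38 and 345.43 reads after cocaine and 341.93, 332.82 and 315.51 after saline. Its highest saline value was within 1.45 reads of the lower cocaine value, and its ratio was 1.043, with a counting interval that includes equality (exact Clopper-Pearson, 95%, 0.945 to 1.148).

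**Figure D1:**
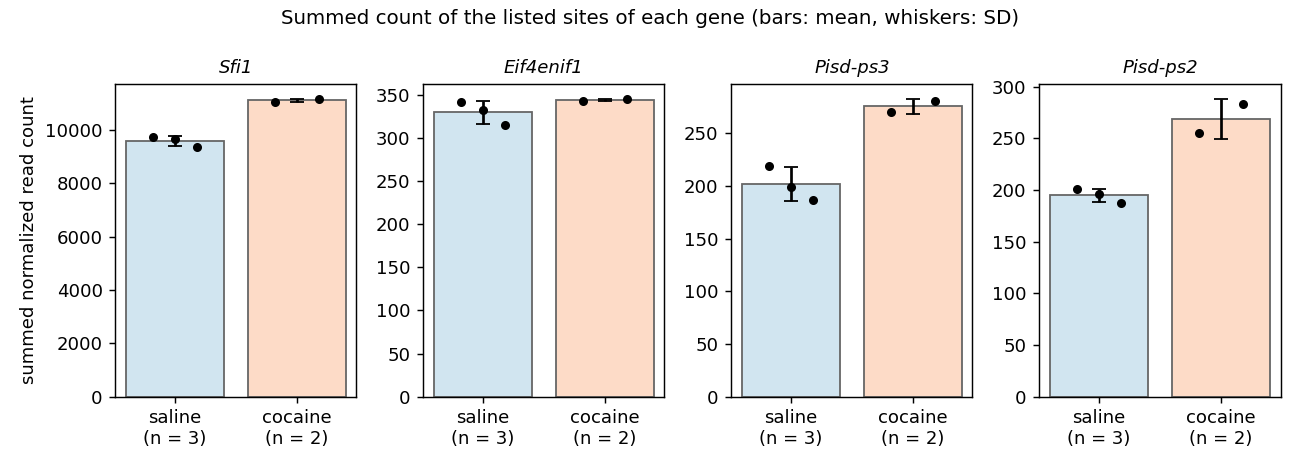
Summed normalized read count (vertical axis, starting at 0, a scale of its own in each panel) of the listed sites of Sfi1, Eif4enif1, Pisd-ps3 and Pisd-ps2 by group. Bars are means, whiskers SD and points the 3 saline and 2 cocaine replicates. The Eif4enif1 bars are nearly level (344.4 against 330.1), whereas those of Pisd-ps3 (275.5 against 201.4) and Pisd-ps2 (269.2 against 194.8) stand further apart in proportion.

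Site by site, mean counts were higher after cocaine at all 24 sites under the authors' scaling, by 4.3 to 39.0%, with a median log2 ratio of 0.21. The median over all 1727 listed sites was 1.82, and it was 1.83 over the 1658 sites with a mean count under 100. The locus had some of the highest counts in the table. Sites were listed for a difference, and the ratio needed for that depends on the count, so these medians are not a like comparison. Of all listed sites, 122 had a lower mean after cocaine, and none of the 24 was among them. At 21 of the 24 sites every cocaine replicate exceeded every saline replicate, beside 92.2% of all listed sites, a contrast on which the sites had been listed. The 3 sites that overlapped were Sfi1 sites at 3070701 to 3071900, 3086101 to 3087600 and 3089801 to 3090800, with ratios of 1.053, 1.054 and 1.060. Among the 45 other sites whose mean count reached 100, of which 31 were on chromosome Y, 14 were higher and 31 lower after cocaine (median log2 ratio -0.09), 5 (11.1%) had all cocaine values above all saline values, 25 had all below and 15 overlapped. The chromosome 11 locus and these sites were not tested against each other.

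The ratio was largest at the Pisd-ps3 end of the locus and became smaller toward Eif4enif1. The Pisd-ps3 site at 3030201 to 3031200 had the largest ratio, with 133.08 and 146.58 reads after cocaine and 111.50, 98.48 and 91.71 after saline (ratio 1.390, counting interval of the pooled reads 1.170 to 1.628). The adjoining site that spans the ends of both genes (3031301 to 3034300) held 832.99 and 861.31 reads against 660.50, 662.00 and 588.44. Its ratio of 1.330 was the largest of the Sfi1 sites. Next to it, 846.96 and 854.49 reads stood against 700.85, 719.44 and 637.57 at 3035301 to 3038500, a ratio of 1.240. Saline replicate 3 was the lowest library at each of these 3 sites, and both cocaine libraries were above all saline libraries.

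The 11 Sfi1 sites more than 30 kb from the start had a median log2 ratio of 0.25 (range 0.13 to 0.41). All of them had every cocaine replicate above every saline replicate, beside 92.2% of all listed sites. The 9 sites nearer the start had a median of 0.15 (range 0.07 to 0.34), with overlap at 3. The distance of 30 kb was chosen after the values were seen. The exception in the nearer part was the site at 3084101 to 3085200, 8.81 kb inside the gene, with 291.63 and 315.89 reads after cocaine and 247.42, 247.11 and 225.99 after saline. Its ratio was 1.265, whereas the next site toward the start (3086101 to 3087600) held 466.61 and 440.88 against 409.89, 434.95 and 446.52. Across the 23 sites, Pearson's r between log2 ratio and position was -0.74 (Spearman's rho -0.72), and over the 20 Sfi1 sites alone it was -0.59. These are descriptions over neighbouring sites that share libraries and are not independent.

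The same shift can be read within each library, where the scaling between libraries cancels. The 4 sites nearest Pisd-ps3 held 16.72 and 16.95% of the chromosome 11 counts in the cocaine replicates and 15.33, 15.53 and 14.32% in the saline replicates. The 4 sites nearest Eif4enif1 held 15.67 and 15.42% after cocaine and 16.03, 16.30 and 17.47% after saline. Neither set overlapped between groups, and saline replicate 3 was furthest from cocaine in both. The sets were picked after the values were seen.

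The shape of the locus itself differed little between libraries. The highest density was 363.1 normalized reads per kb after cocaine and 321.3 after saline, both at the Sfi1 site at 3062101 to 3063500. The lowest density within Sfi1 was at 3075101 to 3076100, with 188.12 and 190.90 reads after cocaine and 170.97, 185.10 and 164.85 after saline over 1.0 kb. The Pisd-ps3 sites were lower still, at 135.6 and 139.8 per kb after cocaine and 100.8 and 100.6 after saline. The longest site (3077801 to 3083200, 5.4 kb) held 1388.32 and 1393.09 reads against 1256.22, 1269.28 and 1221.65, the largest counts of the locus. Log2 counts per kb correlated across the 23 sites with r of 0.975 to 0.987 between replicates of a group and 0.943 to 0.979 between groups. The SD over sites of the log2 ratio was 0.116 between the group means, where counting error alone gives 0.071. Between replicates of a group it was 0.063 to 0.108, where counting error gives 0.106 to 0.121, and each of these 4 pairs was below its counting error. Single pairs of a cocaine with a saline replicate ranged from 0.095 to 0.181, and the 2 highest, 0.153 and 0.181, were the pairs with saline replicate 3. The pair of cocaine replicate 1 and saline replicate 1 (0.095) was below its counting error of 0.108.

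**Figure D2:**
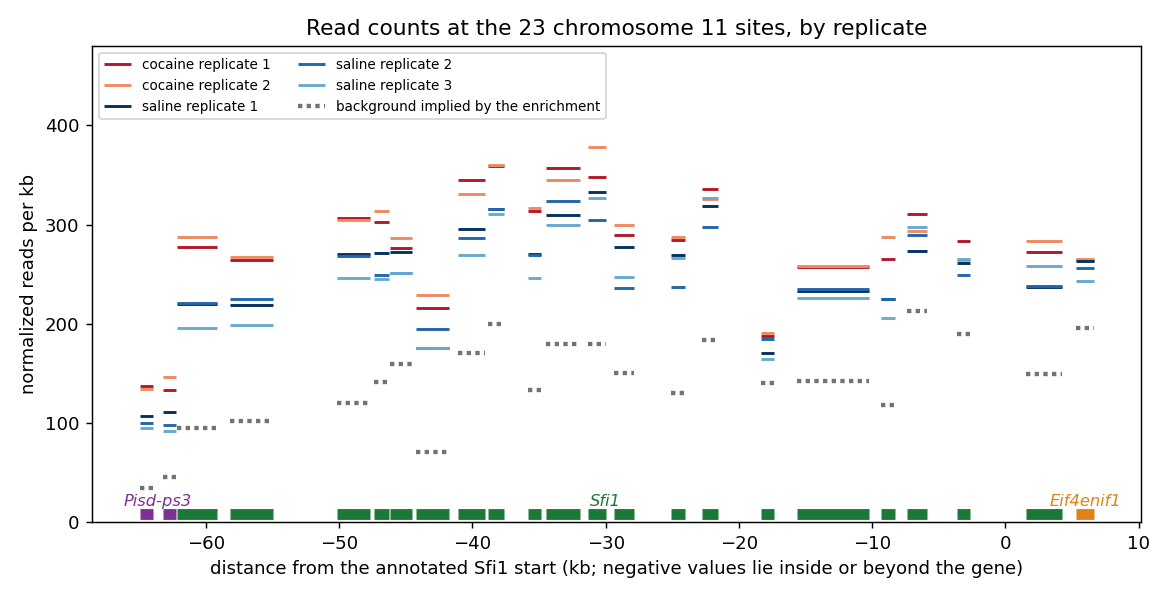
Normalized reads per kb (vertical axis) at the 23 chromosome 11 sites against distance from the annotated Sfi1 start in kb. Each horizontal line is a replicate over the length of a site, dotted lines are the implied background on the saline scale, and blocks at the foot mark the gene named for each site. Density is lowest over Pisd-ps3 (135.6 and 139.8 after cocaine), and the background follows the profile at 34.8 to 212.6 per kb.

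The deposited enrichment columns were not used in the choice of genes, but they are ratios of the same counts to a background. Dividing each group mean by the authors' enrichment gives the background they had set for that site. Over 609 sites of low background, 100.0% of these values were whole multiples of 0.512 within 0.1 of a multiple, as the reads of a single scaled library would be. The series has a DNA input sample, but the sources used here do not state that it is this background. On the saline scale the background at the 24 sites was 34.8 to 212.6 normalized reads per kb (median 141.8). The 1658 sites with a mean count under 100 had a median of 5.5, so the median at the locus was 25.6 times theirs. The locus was thus high in the background as well as in every PARP-1 library, and saline counts per kb followed background per kb across its 23 sites (r = 0.87, rho = 0.77). The other 45 sites of high count had a median background of 227.6 per kb and a corresponding r of 0.91. Counts and background moved together in both sets, so the high background of a locus chosen for its counts is a description only.

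Relative to this background the PARP-1 counts stood above the median listed site after saline and below it after cocaine. The authors' deposited enrichment at the 24 sites was 1.24 to 2.90 after saline (median 1.76) and 1.29 to 3.73 after cocaine (median 1.91). Over all 1727 listed sites the median enrichment was 0.83 after saline and 2.51 after cocaine. Among the 24 sites, enrichment was highest at the first Pisd-ps3 site (3028501 to 3029500), at 2.90 after saline and 3.73 after cocaine. Pisd-ps2 followed among the cocaine values with 3.33, against 2.52 after saline. Eif4enif1 had 1.30 after saline and 1.29 after cocaine, and the Sfi1 site at 3075101 to 3076100 had 1.24 and 1.29. The authors' background on the cocaine scale was 1.045 times that on the saline scale (median of 69 sites). Measured as enrichment the difference between groups was therefore smaller, with a median log2 ratio of 0.15, and 23 sites were higher and 1, Eif4enif1, lower. With the background subtracted, the median log2 ratio was 0.38, from 0.02 at Eif4enif1 to 0.75 at the second Pisd-ps3 site. Pisd-ps2 had 0.68 on that scale.

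Sites with less background had the larger ratios. Across the 23 chromosome 11 sites the log2 ratio and background per kb had r = -0.85 (rho = -0.80), and over the 20 Sfi1 sites r = -0.72. The background was recovered from the deposited means and enrichment, whose rounding amounts to at most 0.4%, and neighbouring sites share libraries. With background subtracted r was -0.75, where both quantities hold the background. In each of the 6 pairs of a cocaine with a saline replicate r was between -0.83 and -0.66. Within groups it was 0.46 between the cocaine replicates and -0.05 to -0.58 between saline replicates, so the libraries of a group also differed along this axis, saline replicate 3 from the other 2. Among the 45 other sites of high count r was -0.27 (rho = -0.08). Between the authors' saline enrichment and the log2 ratio, in contrast, r was positive in both sets, 0.78 at the 23 sites and 0.89 at the 45 other sites. Enrichment and ratio share the saline counts, and the sets were not tested against each other. Whether background has a part in the gradient along the locus was not tested, and position and background moved together (r = 0.65).

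**Figure D3:**
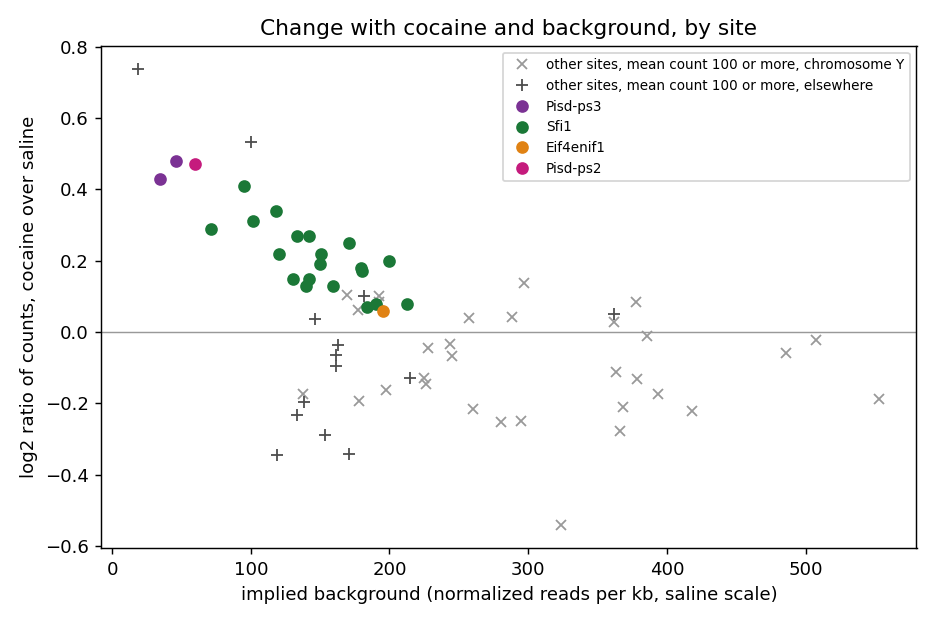
Log2 ratio of mean counts, cocaine over saline (vertical axis), against implied background in normalized reads per kb on the saline scale (horizontal axis), for the 24 sites by gene and the 45 other sites whose mean count reached 100. Each point is a site. The Pisd pseudogene sites lie at the left with 0.43 to 0.48, the Sfi1 sites descend from 0.41 to 0.07 and Eif4enif1 lies at 0.06. Below 0 are 22 of the 31 chromosome Y sites and 9 of the 14 other sites elsewhere. The unnamed chromosome 17 sites at 13743801 and 39980601 stand above all 24, at 0.738 and 0.533, with backgrounds of 19.0 and 100.5.

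The authors' p-values followed the log2 ratio loosely along the locus. Minus log10 of the authors' p had r = 0.35 with the log2 ratio across the 23 chromosome 11 sites (rho = 0.24) and r = 0.48 across the 20 Sfi1 sites (rho = 0.47). In the table deposited by the authors, 19 of the 24 sites had an adjusted p under 0.05. Of all listed sites, 92.3% had such a value with cocaine higher, and 1709 of 1727 had it in either direction. Among the 45 other sites of high count, 33 had it in either direction. The Eif4enif1 site, with a log2 fold change of 0.06, had an adjusted p of 2.72e-07, whereas Pisd-ps2, with 0.47, had 0.00208 in the authors' deposited table. The 5 sites without a call were all in Sfi1 and had log2 fold changes of 0.07 to 0.27. One window of each had been listed with an adjusted p of 9.22e-08 to 4.27e-06 by the authors. At 3086101 to 3087600 the authors' deposited log2 fold change was 0.08 for the site (adjusted p = 1) and 0.02 for the window (adjusted p = 9.22e-08).

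limma, fitted on log2(value + 1) over all 1727 sites with Benjamini-Hochberg adjustment, called 0 of the 24 sites at an adjusted p under 0.05, beside 95.5% of all sites (90.2% higher after cocaine). At an unadjusted p under 0.05 it also called 0 of the 24, beside 1651 of all 1727 sites. The smallest adjusted p was 0.0926 at Pisd-ps2 (log2 fold change 0.46, SE 0.23), followed by 0.0979 at the second Pisd-ps3 site (0.47, SE 0.24). This outcome rests on the spread that limma assigns. With a trend of the spread on the mean count, SEs at the 24 sites were 0.04 to 0.10 in place of 0.22 to 0.24. limma then called 18 sites, beside 98.3% of all sites and 25 of the 45 other sites of high count. Fitted on the 69 sites whose mean count reached 100, it called 20, beside 63.8% of those sites and 24 of the 45 others. The trend fit left out Eif4enif1 (limma adjusted p = 0.317) and the Sfi1 sites at 3068401, 3070701, 3075101, 3086101 and 3089801. Since the sites were listed on this contrast, none of these counts is evidence of a change.

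The direction at this locus depended on which sites the libraries were scaled to. Rescaled to equal totals over the 45 other sites of high count, all 24 sites were higher after cocaine and the median log2 ratio was 0.26. Rescaled to equal totals over all listed sites, it was -0.23, with 2 sites higher and 22 lower. The 2 that stayed higher were Pisd sites, and 0 of the 20 Sfi1 sites did. That scaling moved every site by 0.44 on the log2 scale. It sets equal totals over sites that had been listed for a difference. Of these, 1605 of 1727 had a higher mean after cocaine under the authors' scaling, so it lowers any site with a small increase. The SD of the log2 ratio along the locus was 0.12 under each of the 3 scalings.

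Reads at the 24 sites, 9209 to 14510 per library, made up 17.6 and 17.3% of all reads in the table in the cocaine replicates. In the saline replicates they made up 20.7, 20.7 and 19.8%. Those totals are over sites listed for a difference, of which 1605 of 1727 had a higher mean after cocaine. The 3 other sites of high count whose values over the 5 replicates were most like the mean of the chromosome 11 sites had no gene name. Their root mean square differences in log2(value over site mean) were 0.046, 0.069 and 0.070, against a median of 0.069 for the sites of the locus themselves. The closest was a site on chromosome Y (2857301 to 2859400) that the authors classed as pericentromere, with 1164.87 and 1212.42 reads after cocaine and 1109.68, 1060.47 and 1069.90 after saline, a ratio of 1.101. The others were on chromosome Y (2877201 to 2878200, ratio 1.074) and chromosome 2 (27356701 to 27357800, ratio 1.072).

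Pisd itself, on chromosome 5, held 1 site among 20 genes of phosphatidylserine and phosphatidylethanolamine synthesis, and none of the other 19 genes held any. The gene-body site (33080701 to 33081700) held 45.18 and 37.50 reads after cocaine and 22.30, 16.41 and 24.02 after saline. Its log2 fold change in limma was 0.96 (SE 0.28, adjusted p = 0.0166), and its background was 11.3 per kb, lower than at either pseudogene. The authors' deposited enrichment there was 1.85 after saline and 3.51 after cocaine, in the range of the Pisd pseudogene sites (2.19 to 2.90 and 2.91 to 3.73) for cocaine and below it for saline.

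Of 51 gene names listed for centrins, centrioles and the centrosome, 50 matched a gene in RefSeq and 3 held a site. All 3 were higher after cocaine and called by limma, beside 90.2% of all listed sites that limma called higher. Their median log2 ratio was 1.66, beside 1.82 over all sites. Cntln, the gene of the centriolar linker protein centlein, had 23.82 and 26.13 reads after cocaine and 9.56, 7.29 and 7.64 after saline. Cep152, which encodes a scaffold for centriole duplication, had 18.07 and 21.59 against 9.56, 2.74 and 6.55. Alms1, whose protein sits at the centrosome and ciliary base, had 17.25 and 21.59 against 3.19, 2.74 and 10.92. These counts were far below those of Sfi1, with backgrounds of 5.24 to 9.12 per kb. The list of 40 genes of eIF4E, 4E-T partners and mRNA decay held 0 sites. Of 31 genes known to neighbour the start of chromosome 11, only Nf2 held a site (4746001 to 4747100, promoter class). It had 13.14 and 14.77 reads after cocaine and 6.37, 3.65 and 2.18 after saline (limma log2 fold change 1.64, SE 0.40, adjusted p = 0.00980).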

How the data were processed

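PARP-1 ChIP-seq (antibody ab6079, fragments of 250 to 350 bp, 21 PCR cycles, 100 bp reads) was processed by the submitters with CASAVA 1.8.2 and the mm9 build, per the submitters' processing notes. No source used here gives the aligner, duplicate handling or window settings, nor how many reads each library had in all. Per the file headers, averages of normalized read counts per group form a signal. Also per the file headers, the enrichment columns are a ratio over the authors' background, the deposited fold changes log2 values and the p-value columns the authors' own. Each replicate value, deposited several to a cell, was a whole multiple of 1 read (100.0% of 8635 values within 0.1 read). The value of 1 read was 0.822 and 1.136 (cocaine) and 1.062, 0.912 and 1.092 (saline). The table's control columns were taken as saline, which the series design calls control, and its treatment columns as cocaine.

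Ratios are of group means. The test was limma (version 3.58.1, under R 4.3.3) on log2(value + 1), where the added 1 shrinks fold changes at low values and the mean of logs can differ from the log2 ratio of means. The fit was tested on simulated data. Counting intervals are exact Clopper-Pearson 95% intervals of the pooled reads, with library depth taken from the value of 1 read, and cover counting error only, since PCR copies are not independent molecules. The protocol calls the replicates independent and the design calls them sequencing replicates, so the spread between these libraries may be technical. limma's p-values rest on a spread partly shared over all sites of a fit. In the fit of all listed sites, SEs at the 24 sites were 0.22 to 0.24 whatever the spread of their own replicates. The rule for named genes took the 4 genes with their sites, those of extreme count or ratio among them, the 3 most similar other sites of high count and up to 4 genes per list by the authors' adjusted p. Members, lists and tests were chosen with earlier results of these data known. The mm9 sequence of the sites was not analysed here.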

Additional observations from a re-analysis of the deposited data

How the results depend on the processing

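The replicates of this locus rest on 9209 to 14510 reads per library over the 24 sites. With 2 cocaine libraries, the spread within that group is poorly known. limma's count of called sites was 0, beside 95.5% of all listed sites and 1 of the 45 other sites of high count. With a trend of the spread on the mean it was 18, beside 98.3% and 25 of those 45. On the sites of high count alone it was 20, beside 63.8% of those sites and 24 of the 45 others. It was 0 with a pseudocount of 0.5 (smallest adjusted p 0.105), rescaled to the other sites of high count (0.066), and without each replicate in turn (0.0597 to 0.308, the lowest without saline replicate 1). Leaving out a cocaine replicate leaves 1 cocaine sample, assumed to vary like the saline samples. The median log2 ratio, 0.21, was 0.19 to 0.23 without each replicate in turn. It was 0.26 rescaled to the other sites of high count, and -0.23, a reversed direction, rescaled to all listed sites. The corresponding values for the summed chromosome 11 count (0.21) were 0.27 and -0.23, and 0.19 to 0.23 without each replicate. The SD along the locus was 0.12, and 0.10 to 0.13 without each replicate. These 2 alternatives were added after seeing the data: the authors' enrichment in place of counts, which gave a median log2 ratio of 0.15, and counts less the implied background, which gave 0.38. The cause of these differences was not tested, except that a rescaling shifts all sites alike. edgeR on the recovered reads was planned and not run, although whole reads could be recovered, and DESeq2 was not run either. No paired analysis was possible because the labels give no replicate numbers that pair cocaine with saline samples.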
